A study of Mus musculus with 4 samples.

Results

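Detoxification and alcohol-oxidising enzymes were followed in hindpaw epidermis of mouse lines labelled as overexpressing BMP4 or noggin, a secreted protein that binds and blocks BMPs. The genes were chosen by symbol: cytosolic and kappa-class glutathione S-transferases (Gst), microsomal glutathione transferases (Mgst), glutathione peroxidases (Gpx), aldehyde dehydrogenases (Aldh), alcohol dehydrogenases (Adh), and cytochrome P450 families 1 and 2 (Cyp1 and Cyp2). The choice gave 103 of 19938 genes named by a single platform symbol: 18 Gst, 3 Mgst, 8 Gpx, 21 Aldh, 7 Adh, 1 of them the pseudogene Adh6-ps1, and 46 Cyp1 or Cyp2 genes. A further 9 probe sets carry several symbols of which at least 1 follows the same pattern. They were not used, and 7 symbols occur on them alone.

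Both lines carry their transgene under the K14 promoter, active in basal keratinocytes. Epidermis of glabrous (hairless) hindpaw skin was cut out by laser, with 8 to 10 strips per animal, and each array received RNA pooled from 3 animals. The 6 animals of each line gave 2 arrays, so n = 2 pools per line throughout and every spread is one between pools. No non-transgenic array was analysed here, ages and strains were not given in the sources used here. All differences are noggin minus BMP4 on the log2 scale of the deposited probe set intensities.

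These enzymes act in sequence on reactive and fat-soluble compounds. P450 enzymes of families 1 and 2 insert oxygen into foreign chemicals, fatty acids and vitamins. Alcohol dehydrogenases oxidise alcohols, retinol among them, to aldehydes, and aldehyde dehydrogenases oxidise aldehydes to acids such as retinoic acid. Glutathione transferases couple reactive products to glutathione, and most glutathione peroxidases spend glutathione to reduce peroxides. In skin these families are known for defence against oxidants and pollutants, for handling the lipids of the barrier, and for the local supply of retinoic acid.

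The array medians lay between 6.04 and 6.06, and the arrays correlated with r between 0.985 and 0.993 over named genes (genes being no independent replicates). BMP4 replicate 1 stood apart, over 1 log2 unit above all other arrays in 43 genes and as far below them in 44. Among the enzymes that array did so for 1 gene, noggin replicate 2 for 3 and the other arrays for 0. All 8 basal keratinocyte markers and all 7 measured suprabasal ones lay above the lower quartile of every array. That quartile, 4.71 to 4.72, serves below as a mark of dim signal, because detection above background is unknown. As to the transgenes, Nog measured 5.92 and 5.99 in noggin and 6.13 and 6.04 in BMP4, and Bmp4 measured 7.77 and 7.86 in noggin and 8.22 and 8.03 in BMP4. The transcript parts held by the constructs were not given in the sources used here. The Nog and Bmp4 values are therefore no check of the labels.

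None of the 103 enzymes passed the test. The largest differences were higher noggin means for Gsta4, Mgst1 and Cyp2g1, the last through 1 array alone, and higher BMP4 means for Adh6a, Adh1, Adh6b and Gsta3. Limma called 0 of the 103 at an adjusted p below 0.05, against 0% of the 19938 named genes. At an unadjusted p below 0.05 it gave 5 of the 103, 2 higher and 3 lower in noggin, against 4.28% of named genes. By these brightest probe sets the smallest adjusted p among the enzymes was 0.732 (limma). The smallest two-sided p that an exact permutation test of 2 arrays against 2 allows is 0.333. The values that follow therefore describe these 4 pools.

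As a whole the enzymes had a median difference of -0.0096, beside -0.0064 over all named genes. In 45 of them the noggin mean was the higher one and in 58 the lower, where 47.8% and 52.2% of named genes did so. In 21 enzymes both noggin arrays exceeded both BMP4 arrays, where 15.7% of named genes did, and in 24 they were below both, where 17.9% did. The groups were thus apart in 43.7% of the enzymes and in 33.6% of named genes. Group means were at least 0.5 log2 units apart in 7 enzymes, 3 with noggin higher and 4 with BMP4 higher, against 1.68% and 1.21% of named genes, or 2.89% in either direction. These shares over a list of related genes carry no test. Several families hold near-identical members, and whether their probes also bind a neighbour's transcript was not checked.

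**Figure D1:**
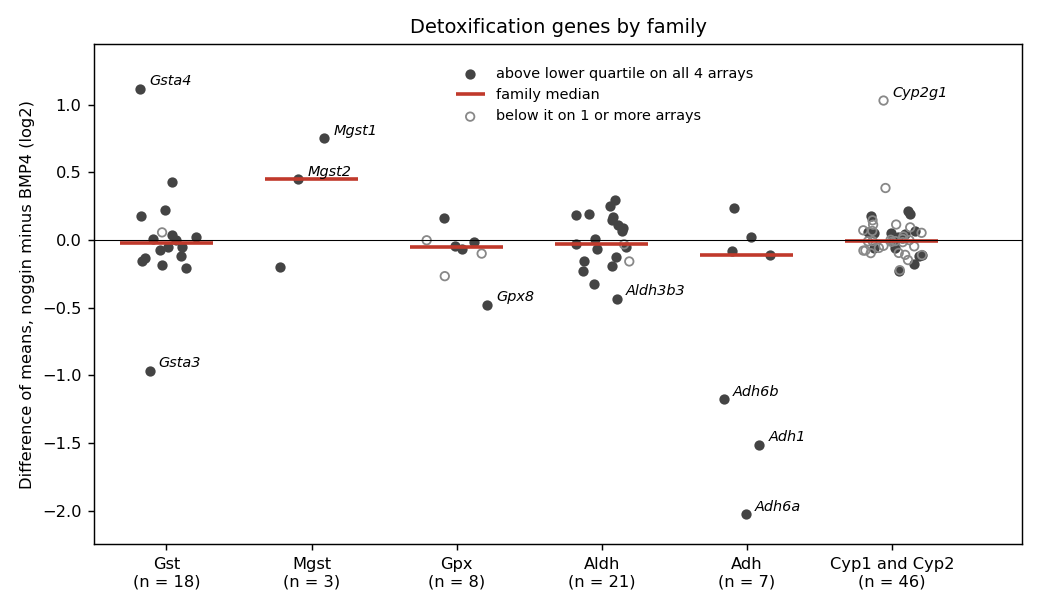
Difference of group means (noggin minus BMP4, log2; vertical axis) for each of the 103 enzymes, by family (horizontal axis; sideways scatter has no meaning), with red bars at the family medians. Most points lie near 0, while Adh6a at -2.03, Adh1 at -1.51, Adh6b at -1.18 and Gsta3 at -0.96 lie low and Gsta4 at 1.12, Cyp2g1 at 1.03 and Mgst1 at 0.75 lie high; open circles are genes below the lower quartile of intensity on at least 1 array.

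The glutathione transferases were led by 2 alpha-class genes that pointed in opposite directions. Gsta4, whose enzyme conjugates lipid peroxidation products such as hydroxynonenal, measured 12.11 and 12.09 in the noggin arrays and 10.73 and 11.24 in the BMP4 arrays. The noggin arrays were near-equal and high, and the lower BMP4 value was that of replicate 1. The noggin mean was 12.10 ± 0.012 (SD, n = 2) and the BMP4 mean 10.99 ± 0.36 (SD, n = 2), a 2.17-fold difference with a 95% interval of 0.57 to 1.66 log2 units (limma, adjusted p = 0.732). With 1 array left out the difference stayed between 0.86 and 1.37. Gsta3, a transferase known for conjugating electrophiles and for isomerising steroid precursors, measured 6.72 and 6.15 in noggin and 7.67 and 7.13 in BMP4. Both BMP4 arrays were the high ones, and the difference was -0.96, 1.95-fold, with an interval from -1.76 to -0.17 (limma, adjusted p = 0.850).

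The other transferases differed less. Gsto1, an omega-class enzyme that reduces dehydroascorbate, measured 9.17 in both noggin arrays and 9.36 and 9.40 in BMP4, a small gap of -0.21 with little spread within groups (limma, adjusted p = 0.893). Its relative Gsto2 had a difference of -0.18 with no overlap, which came to -0.08 without noggin replicate 1 and -0.28 without noggin replicate 2. Gstk1, the kappa-class enzyme of mitochondria and peroxisomes, measured 9.23 and 8.77 in noggin and 8.55 and 8.58 in BMP4, a difference of 0.43 that came to 0.20 without noggin replicate 1. The pi-class genes Gstp1 and Gstp3 had differences of 0.18 and 0.22, the latter with overlapping groups and 0.04 without noggin replicate 2. The 7 mu-class genes ranged from -0.15 to 0.06 and the 4 theta-class genes from 0.0019 to 0.04. For the mu-class gene Gstm3 the probe set used differed by -0.07. A dimmer Gstm3 probe set differed by 0.26, with both noggin arrays higher, or by 0.10 without BMP4 replicate 1. Over the whole Gst family the median difference was -0.02, with 3 of 18 genes higher and 5 lower in noggin without overlap, where 15.7% and 17.9% of named genes were.

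Of the microsomal transferases, Mgst1 and Mgst2 had the higher mean in noggin and Mgst3 in BMP4. Mgst1, a membrane transferase and peroxidase of the endoplasmic reticulum and outer mitochondrial membrane, measured 8.997 and 8.82 in noggin and 8.03 and 8.29 in BMP4. The groups were apart, and the difference of 0.75, 1.68-fold, had an interval from 0.37 to 1.13 (limma, adjusted p = 0.736). Mgst2, which can also make leukotriene C4, measured 10.40 and 10.56 in noggin and 9.83 and 10.22 in BMP4. Its difference of 0.45 came to 0.26 without BMP4 replicate 1 (limma, adjusted p = 0.874 with all arrays). Mgst3 measured 8.74 and 8.62 in noggin and 8.91 and 8.84 in BMP4, a difference of -0.20 (limma, adjusted p = 0.931).

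The bases before the RefSeq start sites of Gsta3 and Mgst1 are shown because these genes are among the largest differences of their families, in opposite directions. Each run is the 250 bases upstream of a start on the plus strand of GRCm38.p6, chr1:21240335-21240584 for Gsta3 and chr6:138140277-138140526 for the first of the Mgst1 starts in the table. Capitals mark matches to the core of the antioxidant response element, which NRF2 binds.
Gsta3: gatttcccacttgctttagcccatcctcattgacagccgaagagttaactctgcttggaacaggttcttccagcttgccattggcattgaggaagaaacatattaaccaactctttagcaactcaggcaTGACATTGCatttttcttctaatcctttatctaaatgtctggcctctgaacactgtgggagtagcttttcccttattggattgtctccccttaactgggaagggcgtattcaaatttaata
Mgst1: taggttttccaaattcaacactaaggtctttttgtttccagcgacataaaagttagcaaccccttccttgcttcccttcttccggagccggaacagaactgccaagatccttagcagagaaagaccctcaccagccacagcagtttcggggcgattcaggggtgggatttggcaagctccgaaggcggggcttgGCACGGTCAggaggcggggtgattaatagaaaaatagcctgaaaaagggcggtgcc
Letters searched on both strands were TGACNNNGC (antioxidant response element core), GCGTG (the core bound by the aryl hydrocarbon receptor, AHR), GGCGCC (an element bound by BMP-regulated SMADs) and TATAAA, a common core promoter element. The Gsta3 window held TGACNNNGC from -121 to -113 before the start, and the Mgst1 window held it on the minus strand from -56 to -48. The window before the other Mgst1 start, not shown, held none of these patterns. Of all 32851 RefSeq windows of this length 10.2% held TGACNNNGC, and of the 101 windows of the 85 enzymes with an entry 6.93% did. A match is a description of letters and not a bound site.

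Glutathione peroxidases differed little apart from Gpx8. Gpx8, a peroxidase of the endoplasmic reticulum, measured 7.91 and 7.88 in noggin and 8.31 and 8.44 in BMP4. The groups were clearly apart, and the difference of -0.48, 1.39-fold, had an interval from -0.74 to -0.22 (limma, adjusted p = 0.742) and lay between -0.54 and -0.42 with 1 array left out. Gpx1, the cytosolic enzyme, measured 11.79 and 11.72 in noggin and 11.60 and 11.59 in BMP4, a difference of 0.17 (limma, adjusted p = 0.935). Gpx3, the secreted plasma form, measured 4.802 and 4.43 in noggin, the latter below the lower quartile, and 4.82 and 4.95 in BMP4. Its difference of -0.27 came to -0.08 without noggin replicate 2 and -0.45 without noggin replicate 1. Gpx4, which reduces lipid hydroperoxides in membranes and so guards against ferroptosis, overlapped between groups at 9.83 and 9.25 in noggin and 9.32 and 9.79 in BMP4. The remaining peroxidases, Gpx2, Gpx5, Gpx6 and Gpx7, overlapped between groups, with Gpx5 below the lower quartile on all arrays, and the family median was -0.05.

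The alcohol dehydrogenases held the largest differences, all in 3 neighbouring genes with the higher mean in BMP4. Adh6a, a member of a little-studied class, measured 5.45 and 5.07 in noggin and 7.92 and 6.66 in BMP4. Both BMP4 arrays were high, replicate 1 most, and the BMP4 mean of 7.29 ± 0.89 (SD, n = 2) was 4.08-fold above the noggin mean of 5.26 ± 0.27 (SD, n = 2). The difference of -2.03 had an interval from -3.32 to -0.74 (limma, adjusted p = 0.773), and lay between -2.66 and -1.40 with 1 array left out. Adh1, the class I enzyme of ethanol and retinol oxidation, measured 9.56 and 7.74 in noggin and 9.99 and 10.34 in BMP4. Noggin replicate 2 was the low array while noggin replicate 1 lay just under the BMP4 arrays, so the difference of -1.51 came to -0.60 without noggin replicate 2 and -2.43 without noggin replicate 1. Its interval reached from -3.32 to 0.29 (limma, adjusted p = 0.905).

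Adh6b, the next gene along, measured 6.37 and 5.07 in noggin and 7.04 and 6.76 in BMP4. As for Adh1, noggin replicate 2 was the low array, and the difference of -1.18 (limma, adjusted p = 0.892) came to -0.53 without it and -1.83 without noggin replicate 1. A second Adh6b probe set lay between 4.18 and 4.25 on all arrays, below the lower quartile, with a difference of -0.03. In the RefSeq gene table Adh7, Adh1, Adh6a, Adh6b, Adh4 and Adh5 neighbour each other in that order. The genes at both ends of the row differed far less. Adh7, the class IV enzyme of epithelia that oxidises retinol, measured 11.13 and 10.95 in noggin and 10.94 and 10.67 in BMP4, a difference of 0.23 in the other direction (limma, adjusted p = 0.939) that came to 0.10 without BMP4 replicate 2 and 0.37 without BMP4 replicate 1. Adh4 and Adh5, the latter the formaldehyde-clearing glutathione-dependent enzyme, had differences of -0.08 and -0.11, and the groups overlapped for Adh5, whose difference came to -0.03 without noggin replicate 1. These genes are related in sequence, and whether probes of Adh1, Adh6a and Adh6b share targets was not checked.

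**Figure D2:**
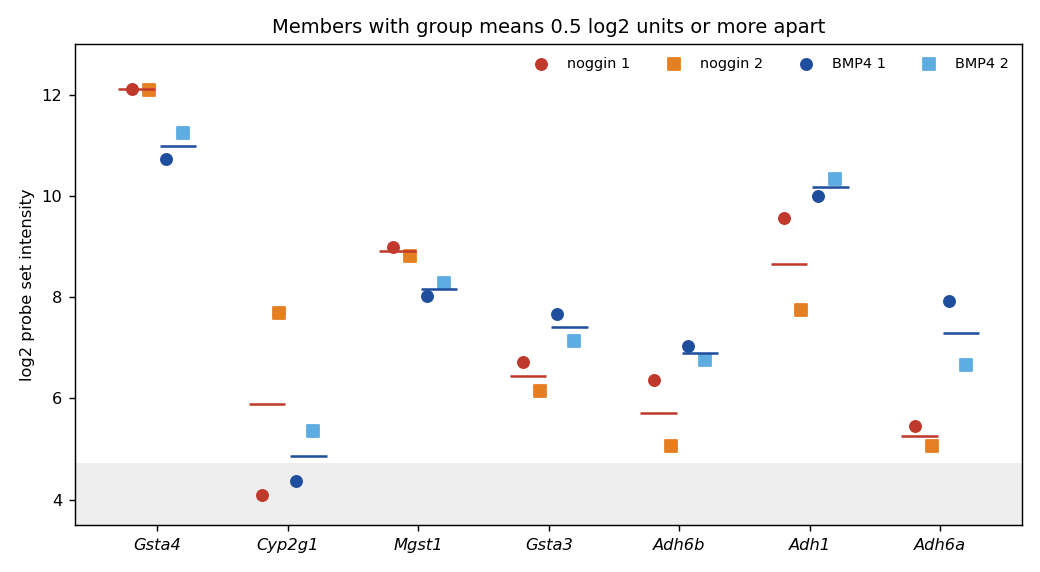
Log2 probe set intensity (vertical axis) in each of the 4 arrays for the 7 enzymes whose group means were 0.5 log2 units or more apart (horizontal axis); short lines are group means and the grey band lies below the lower quartile of the arrays. Gsta4 was near-equal in both noggin arrays at 12.11 and 12.09, Adh1 was low in noggin replicate 2 alone at 7.74, and Cyp2g1 was high in noggin replicate 2 alone at 7.68.

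The windows before the starts of 3 neighbours, 1 with the higher mean in noggin and 2 with the higher mean in BMP4, are shown for comparison. They are plus-strand GRCm38.p6 sequences from RefSeq, at chr3:138217523-138217772 for Adh7, chr3:138277335-138277584 for Adh1 and chr3:138313036-138313285 for Adh6a. Capitals mark every match to the 4 letter patterns given above.
Adh7: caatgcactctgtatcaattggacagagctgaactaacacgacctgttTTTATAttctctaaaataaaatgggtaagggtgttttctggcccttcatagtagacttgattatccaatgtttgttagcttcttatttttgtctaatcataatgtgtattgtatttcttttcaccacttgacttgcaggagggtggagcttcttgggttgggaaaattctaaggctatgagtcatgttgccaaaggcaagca
Adh1: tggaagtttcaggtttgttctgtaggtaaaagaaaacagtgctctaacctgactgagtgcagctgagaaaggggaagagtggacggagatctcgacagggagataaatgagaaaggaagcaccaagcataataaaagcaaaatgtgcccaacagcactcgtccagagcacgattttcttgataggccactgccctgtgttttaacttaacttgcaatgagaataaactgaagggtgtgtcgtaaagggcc
Adh6a: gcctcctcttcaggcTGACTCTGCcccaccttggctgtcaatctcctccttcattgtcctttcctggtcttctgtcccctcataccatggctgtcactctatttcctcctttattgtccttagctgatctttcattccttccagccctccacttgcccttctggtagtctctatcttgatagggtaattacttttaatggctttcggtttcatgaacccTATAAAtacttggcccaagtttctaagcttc
Adh6a held TATAAA from -31 to -26 and TGACNNNGC from -235 to -227. Adh7 held TATAAA only on the minus strand, from -202 to -197, and in the Adh1 window none of the 4 patterns was found. TATAAA stood in 12.4% of all windows and in 24.8% of the windows of the enzymes, GCGTG in 28.2% and 25.7%, and GGCGCC in 9.59% and 4.95%.

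By the brightest probe set of each gene, aldehyde dehydrogenases had small differences, between -0.43 and 0.30 over 21 genes, with a median of -0.03. A dimmer probe set of Aldh3b3 differed by 1.14, as given below. In 6 of the 21 genes both noggin arrays were the higher ones and in 5 the lower ones, where 15.7% and 17.9% of named genes were. Aldh2, the mitochondrial enzyme that clears acetaldehyde, measured 6.93 and 6.97 in noggin and 6.55 and 6.76 in BMP4, a difference of 0.30 (limma, adjusted p = 0.874) that came to 0.19 without BMP4 replicate 1. Aldh4a1, which acts in proline breakdown, measured 5.67 and 5.89 in noggin and 6.19 and 6.03 in BMP4, a difference of -0.33 (limma, adjusted p = 0.876) that came to -0.22 without noggin replicate 1. Aldh5a1, the succinic semialdehyde dehydrogenase, measured 6.39 and 6.44 in noggin and 6.23 and 6.22 in BMP4, a difference of 0.19 with little spread in either group (limma, adjusted p = 0.913). Aldh3a2, the fatty aldehyde dehydrogenase whose loss in people causes a scaling skin disease, measured 7.36 and 7.68 in noggin and 7.24 and 7.30 in BMP4. Noggin replicate 2 was the high array, and the difference of 0.25 came to 0.09 without it and 0.41 without noggin replicate 1.

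The retinaldehyde dehydrogenases, which make retinoic acid, showed no separation of the groups. Aldh1a1 measured 6.07 and 6.01 in noggin and 5.68 and 6.10 in BMP4, and Aldh1a2 measured 6.19 and 5.97 against 5.74 and 6.21. In both genes BMP4 replicate 1 was the lowest array and BMP4 replicate 2 the highest. Aldh1a3 lay between 5.45 and 5.58 on all arrays, and the related Aldh1a7 lay below the lower quartile on all of them.

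Aldh3b3, a lipid-associated aldehyde dehydrogenase, gave different answers by probe set. The probe set with the highest mean, 10460255, measured 10.001 and 9.24 in noggin and 10.10 and 9.997 in BMP4, a difference of -0.43 that came to -0.05 without noggin replicate 2. Probe set 10460257 differed by only -0.05. The third, 10460251, measured 6.86 and 7.08 in noggin and 5.71 and 5.95 in BMP4, a difference of 1.14 with an interval from 0.75 to 1.53 (limma, adjusted p = 0.640). In that probe set the noggin arrays were both high and the BMP4 arrays both low, and its difference stayed between 1.02 and 1.26 with 1 array left out. Averaged over the 3 probe sets, the gene's difference was 0.22. Its neighbour Aldh3b2 measured 9.56 and 9.30 in noggin and 9.55 and 9.63 in BMP4. Which stretch of the transcript each probe set covers was not examined.

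**Figure D3:**
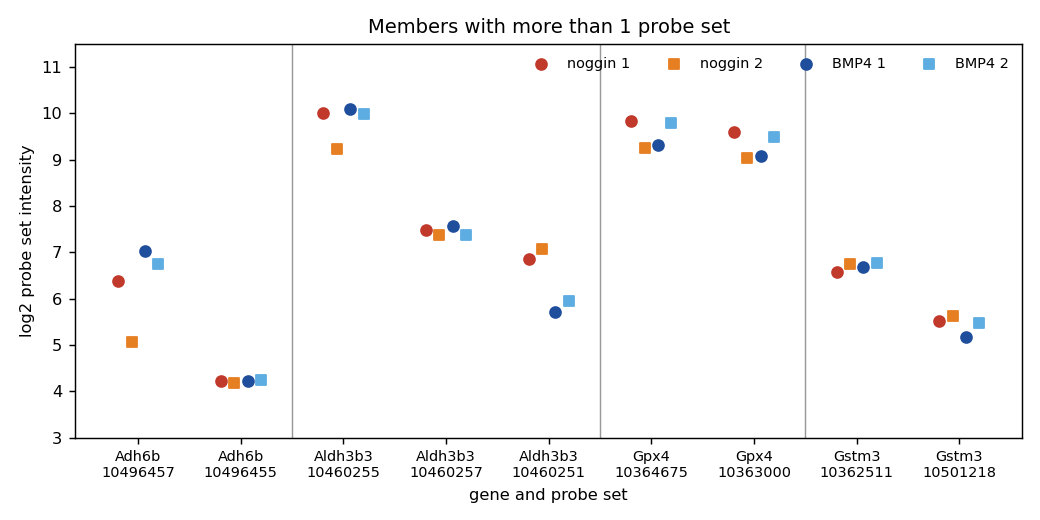
Log2 intensity (vertical axis) in each array for every probe set of the 4 enzymes with more than 1 (horizontal axis, gene and probe set). The Aldh3b3 probe sets differed in direction, from -0.43 to 1.14, as did those of Gstm3, at -0.07 and 0.26. Both Gpx4 probe sets had the same order of arrays and differences of -0.01 and 0.03.

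The P450 genes of families 1 and 2 were often dim, and they had the smallest median size of difference of the 6 families, 0.07 log2 units. Of 46, 22 lay below the lower quartile on all arrays, among them 10 of 13 Cyp2c and both Cyp2a genes, and 17 lay above it on all arrays. The median difference was -0.0044. In 8 genes both noggin arrays were higher and in 7 both were lower, where 15.7% and 17.9% of named genes were. Cyp2b19, an epoxygenase of keratinocytes that acts on arachidonic acid, measured 11.14 and 11.22 in noggin and 11.13 and 11.12 in BMP4, a difference of 0.06 with an interval from -0.19 to 0.30. That interval bounds any difference in this gene at about 0.30 log2 units under the fit.

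Cyp1a1, the classical target of AHR, measured 4.99 and 4.62 in noggin and 4.30 and 4.54 in BMP4. Of these values 3 lie below the lower quartile, and the difference of 0.39 came to 0.20 without noggin replicate 1 (limma, adjusted p = 0.913). Cyp2j6, a fatty acid epoxygenase, measured 8.54 and 8.75 in noggin and 8.91 and 8.85 in BMP4, a difference of -0.23 (limma, adjusted p = 0.930) that came to -0.13 without noggin replicate 1. Cyp2d9 was below the lower quartile on 3 arrays and differed by 0.15 (limma, adjusted p = 0.939). Cyp2g1, known from olfactory mucosa, measured 4.10 and 7.68 in noggin and 4.36 and 5.35 in BMP4. Noggin replicate 2 alone was high, the groups overlapped, and the difference of 1.03 turned to -0.76 without that array (limma, adjusted p = 0.981 with all arrays).

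**Figure D4:**
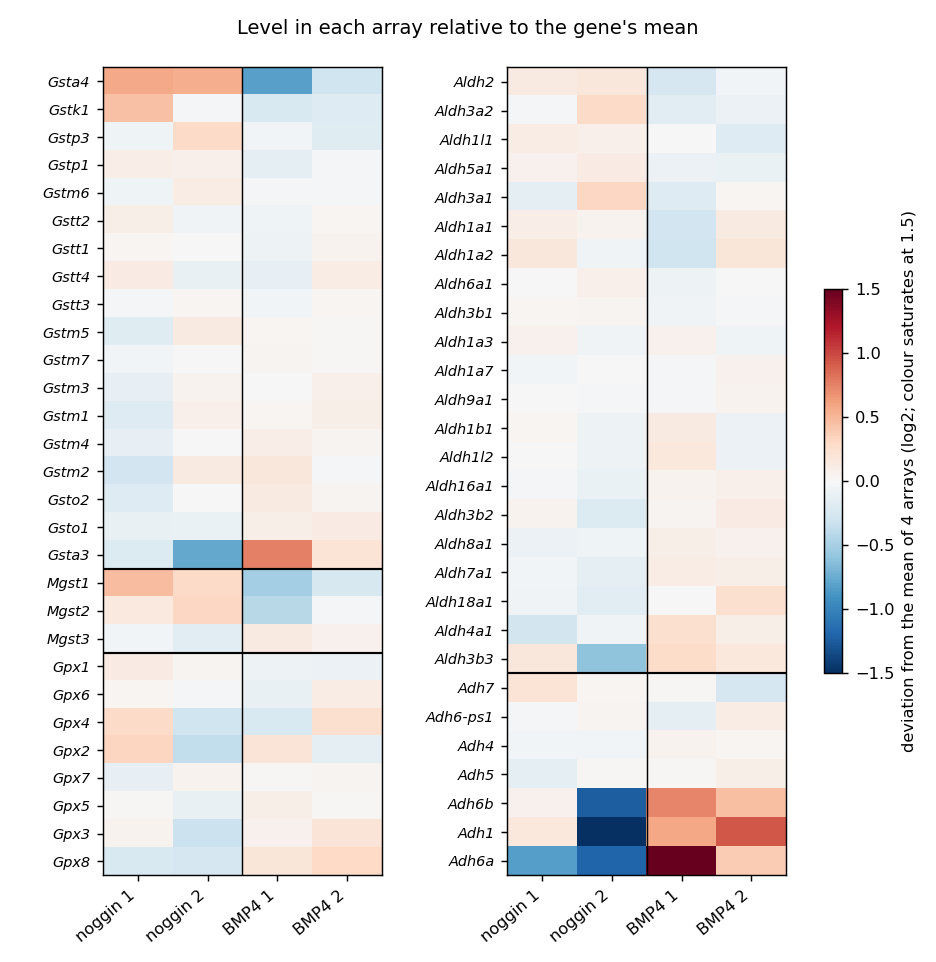
Deviation of each array from the gene's mean over the 4 arrays (log2, colour scale that saturates at 1.5), for the 57 enzymes outside the P450 families (rows, grouped by family) and the 4 arrays (columns). The strongest colours are in Adh6a, Adh1 and Adh6b, low in noggin replicate 2 and, for Adh6a, highest in BMP4 replicate 1, and in Gsta4, lowest in BMP4 replicate 1.

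Other genes of these pathways were compared by lists. Of 26 genes of the NRF2 pathway and glutathione supply, limma called 0. In 8 both noggin arrays were higher and in 6 both were lower, where 15.7% and 17.9% of named genes were, and the list's median was 0.05. The 3 with the smallest p all had the higher mean in noggin: the carbonyl reductase Cbr1 by 0.40, the haem oxygenase Hmox1 by 0.73 and the thioredoxin reductase Txnrd1 by 0.35 (limma, adjusted p = 0.848 to 0.850). Hmox1 measured 9.86 and 9.45 in noggin and 8.75 and 9.11 in BMP4. The glutathione-making genes, singled out after their values were seen, pointed the other way. Gclc, the catalytic subunit of the rate-limiting ligase, measured 7.99 and 7.96 in noggin and 8.60 and 8.27 in BMP4. Its modifier Gclm differed by -0.37 and the glutathione synthetase Gss by -0.44, while the cystine importer Slc7a11 differed by 0.52. Without BMP4 replicate 1 the differences of Gclc, Gss and Gclm came to -0.29, -0.29 and -0.19, and that of Slc7a11 came to 0.32 without BMP4 replicate 2.

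Retinoid-handling genes had 9 of 27 with both noggin arrays higher and 1 with both lower, where 15.7% and 17.9% of named genes were, a median of 0.09, and 0 called. Dhrs3, a retinaldehyde reductase, measured 9.42 and 9.29 in noggin and 9.06 in both BMP4 arrays, and Rdh16 and Sdr16c6, dehydrogenases of the retinol and steroid type, were higher in noggin by 0.29 and 0.30 (limma, adjusted p from 0.870 to 0.874 for these 3). Of 11 genes of the AHR pathway and P450 partners 2 had both noggin arrays higher and 0 both lower, against the same 15.7% and 17.9%. Tiparp, an AHR target, differed by 0.22, Ahr by 0.17 and the cytochrome Cyb5b by -0.22. Without noggin replicate 2 these came to 0.03, 0.04 and -0.02, and the groups overlapped for Ahr and Cyb5b. Among 25 other conjugation and efflux genes 5 had both noggin arrays higher and 5 both lower, again beside 15.7% and 17.9%, with a median of -0.0011. The epoxide hydrolase Ephx3 measured 6.94 and 7.00 in noggin and 6.37 and 6.58 in BMP4 (limma, adjusted p = 0.773). Its relative Ephx2 was below the lower quartile on all arrays, with a difference of 0.32, and the efflux pump Abcg2 differed by 0.57 (limma, adjusted p = 0.903), or 0.32 without BMP4 replicate 1. The last 2 lists too had 0 genes called.

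**Figure D5:**
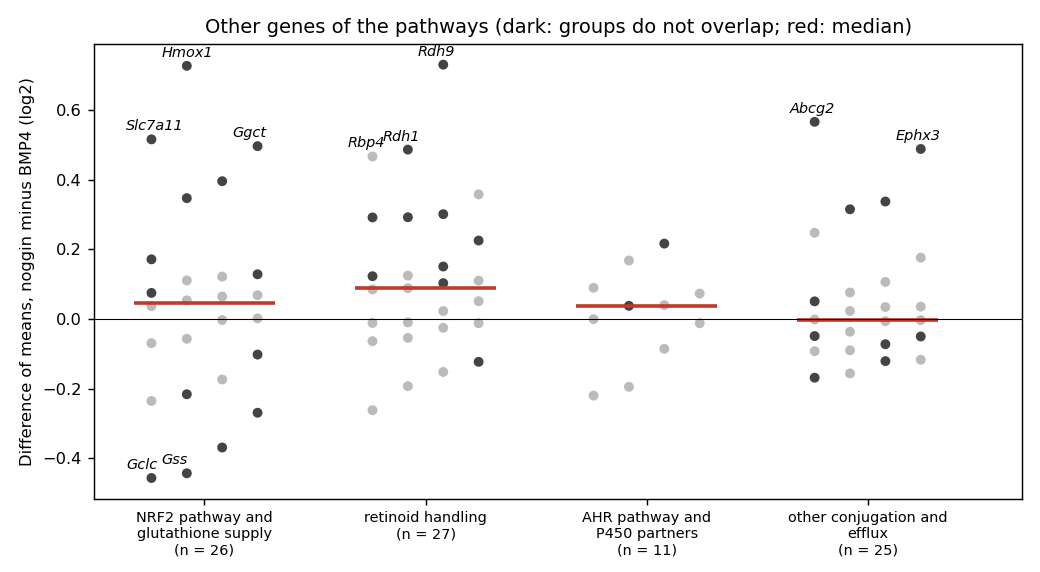
Difference of group means (noggin minus BMP4, log2; vertical axis) for other genes of the pathways in 4 lists (horizontal axis; sideways position has no meaning), dark where the groups do not overlap, with red bars at the list medians. Hmox1 lies at 0.73 and Gclc at -0.46 in the same list, and the retinoid list has 9 genes with both noggin arrays higher and 1 with both lower.

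Summed markers of some cell types, basal and suprabasal keratinocytes included, were apart between the lines, although limma called 0 genes of any list. Of single named genes 33.6% were apart in either direction, and no such share was worked out for sums. The counts below stand beside 15.7% of named genes with both noggin arrays higher and 17.9% with both lower. The summed linear intensity of 15 sebaceous gland markers was 4858 to 5635 in noggin and 3561 to 4372 in BMP4, lowest in BMP4 replicate 1. In 4 of them both noggin arrays were higher and in 0 lower. These 4 were Plin2, Elovl6, Scd1 and Awat2, and the groups overlapped for the rest. Bright genes weigh most in such a sum, among them Scd1 at 10.67 and 10.61 in noggin and 9.86 and 10.30 in BMP4. For 16 Langerhans cell and macrophage markers the sum was 4984 to 5304 in noggin and 2212 to 4290 in BMP4. Of the 16, 10 were higher in both noggin arrays and 1 lower. The lower one, H2-Eb1, measured 6.37 and 6.43 in noggin and 7.31 and 7.38 in BMP4. For the list as a whole BMP4 replicate 1 was the low array. The list's median deviation from the gene means was -0.72 in it, 0.16 in BMP4 replicate 2, and 0.26 and 0.39 in noggin. The sum of 14 hair follicle markers was 1625 to 1749 in noggin and 2747 to 5405 in BMP4, with 7 of 14 lower in both noggin arrays and 1 higher. Krt84, a hair keratin, at 5.47 and 5.71 in noggin and 11.60 and 9.09 in BMP4, and S100a3, at 8.25 and 8.03 in noggin and 9.86 and 9.67 in BMP4, carried that gap. Without these, left out after their values were seen, the other 12 summed to 1311 to 1400 in noggin and 1381 to 1391 in BMP4, which overlap. The median difference of these 12 was -0.12. Among them Krt25, Krt73, Krt31, Krt86 and Krt28 were still lower in both noggin arrays. Krt25 differed by -1.74, or by -1.28 without BMP4 replicate 1, and Krt73 by -0.71, or by -0.85 without it. Without that array the Krt86 difference of -1.10 came to -0.13 and the Krt31 difference of -0.32 to -0.07. Krt86 lay below the lower quartile on 3 arrays, and Krt28 differed by only -0.08. The brighter Gata3 was higher in both noggin arrays, by 0.54, or by 0.16 without BMP4 replicate 1. The groups overlapped for the rest. In these lists Krt28 alone lay below the lower quartile on all arrays. Basal keratinocyte markers summed to 15491 to 15842 in noggin and 16149 to 16977 in BMP4, and suprabasal ones to 52690 to 53221 and 51334 to 51754. Neither pair of ranges overlaps. Of 8 basal markers 1 was higher in both noggin arrays and 4 lower, and of 7 suprabasal markers 3 were higher and 0 lower. Sums of the fibroblast, skeletal muscle, sweat gland, T cell, melanocyte, endothelium, adipocyte, blood cell and mast cell lists overlapped between the lines. In bulk strips fewer cells of a type and less RNA per cell cannot be told apart, and the part of these cell types in the enzyme differences was not tested.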

How the data were processed

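The authors deposited log2 intensities of 35556 probe sets on 4 arrays, made with Affymetrix Expression Console and RMA, per the submitters' processing notes, with versions and settings not given in the sources used here. RMA subtracts background, equalises the arrays' distributions and compresses dim differences. RNA was amplified before labelling, per the labels' protocols. Precision is limited by the number of arrays.

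Of the probe sets 21789 carry 1 gene symbol, 1621 several and 12146 none here. The probe set with the highest mean stood for a gene. All 103 enzymes had an Entrez match in the RefSeq GRCm38.p6 table, used for names and neighbours. Noggin and BMP4 were compared with limma 3.58.1 in R 4.3.3 (lmFit, eBayes, group as the only term, 2 residual and 2.08 prior degrees of freedom), two-sided, with Benjamini-Hochberg adjustment over all probe sets and a threshold of 0.05. The code was tested on simulated data.

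Named in full were the 3 enzymes of smallest p in each family and those at least 0.5 log2 units apart, and the 3 of smallest p in each pathway list; the other enzymes are given as examples of their family. Marker genes are given by list, and the single markers named were picked after their values were seen. The enzymes and lists were chosen with earlier results of these data known. Arrays were not paired: same-numbered arrays' deviations correlated at -0.12, and no label links a number to a batch. Alternatives were other normalizations, priors, a dim filter, the replicate number as a block, means over probe sets, thresholds and leaving out each array. Python 3.11.15 with matplotlib 3.10.9 drew the figures.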

Additional observations from a re-analysis of the deposited data

How the results depend on the processing

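Limma called 0 probe sets and 0 of the 103 enzymes under every alternative run, including thresholds of 0.01 and 0.1 and the replicate block, where the median difference of the enzymes was -0.0096 and 7 enzymes lay at an unadjusted p below 0.05. Over the alternatives 4 to 11 enzymes did so, 3.88% to 10.7% of those tested, beside 4.88% to 6.9% of all features tested, and the smallest adjusted p of any named gene was 0.272 (limma). The block changed no call. The median difference of the enzymes ranged from -0.056 to -0.0029 on leaving out 1 array. The count with noggin at least 0.5 log2 units higher then ranged from 3 to 5, and that with BMP4 higher from 4 to 5, beside 1.19% to 2.95% and 1.08% to 2.07% of named genes (alternatives chosen after seeing the data). On leaving out 1 array Cyp2g1 ranged from -0.76 (without noggin replicate 2) to 2.82 and Gpx4 from -0.31 to 0.28 (without noggin replicate 2), with 0.22 without BMP4 replicate 2. With all probe sets of a gene averaged Aldh3b3 turned to 0.22 and Gpx4 to 0.0083; the cause was not tested. These values are among 585 counted for the genes named in full and some others, of which the remaining 580 kept their direction. Marker genes and several enzymes named as examples were not counted. Among these, Aldh1a1 came to -0.06 and Aldh1a2 to -0.13 without BMP4 replicate 1, against 0.15 and 0.11 with all arrays. Gstm3 came to 0.02 without noggin replicate 1, against -0.07 with all arrays. Among enzymes above the lower quartile on all arrays, a restriction chosen after seeing the data, 16 of 68 had both noggin arrays higher and 18 both lower, beside 16.2% and 17.6% of the 15921 named genes so restricted. Detection above background is unknown, which limits the P450 genes most, and 2 pools per line limit all comparisons.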
